A study of Mus musculus with 6 samples.

Results

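Lyz1, Lyz2, Ang, Ang4, Pla2g2a, Mptx1, Mptx2 and Itln1 encode secreted antimicrobial proteins of the gut that are made by Paneth cells or by cells that share products with them. These 8 genes were chosen by name with earlier results of these data known. All 8 were found among the 53700 gene rows of the deposited count table. Their transcripts were counted by bulk RNA sequencing of 6 mouse colon tumours. Each library is treated as the tumour of a separate mouse, which the labels do not spell out, so p-values measure the spread between these samples. The 3 APC-KI mice carried a genotype in which doxycycline represses endogenous Tcf7l2 throughout the body, had been on doxycycline for 6 weeks and had recovered. The 3 APC-WT mice kept endogenous Tcf7l2 expression, received doxycycline over 10 days and were cachectic (wasted by their cancer). Both genotypes ate pellets with doxycycline at 100 mg/kg. Genotype, Tcf7l2 level, duration of treatment and recovery all changed together and cannot be told apart. Counts of Y-linked genes, a sign of male sex, also differed in part between the groups. The sources used here give no strain, age or sex and do not say how the tumours arose.

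Paneth cells sit at the base of small intestinal crypts beside the stem cells and release granules of lysozyme, alpha-defensins, ribonucleases and phospholipase, which kill or restrain bacteria. The healthy mouse colon has few or no Paneth cells, and its crypt base holds deep crypt secretory cells instead. Wnt signalling through beta-catenin and TCF factors, of which Tcf7l2 is a principal one in the intestine, drives the Paneth cell programme, and intestinal tumours with active Wnt signalling often express Paneth cell genes. Goblet cells and myeloid cells also make some of these proteins, in particular Itln1 and Lyz2.

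The libraries held between 51777342 and 63921108 counts. Tcf7l2 was at 4.48, 6.91 and 5.34 CPM in APC-KI tumours and at 44.1, 43.8 and 35.6 CPM in APC-WT tumours. CPM are counts scaled to a common library size with TMM factors. A summed set of 12 pan-epithelial markers stood between 11010 and 13090 CPM in APC-KI tumours and between 9021 and 10200 CPM in APC-WT tumours. APC-WT replicates 1 and 2 held 19164 and 16055 counts of 4 Y-linked genes, while the other 4 libraries held 0. Sex may thus differ in part between the groups, although the labels do not give it. The 4 libraries at 0 are called Y-negative. Among Y-negative libraries alone the single APC-WT library takes its spread from the APC-KI libraries. Values from them stand beside those of the 8 genes whose call or sign changed, and counts from them beside each marker list whose count changed.

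Lyz1 and Lyz2 are neighbours, and their promoter sequences are shown because Lyz1 fell in APC-KI tumours while Lyz2 did not pass the test. In RefSeq on build GRCm38.p6 the starts of the pair lie 10596 bases apart on the minus strand of chromosome 10. The 250 bases before the start are at chr10:117292869-117293118 for Lyz1 and chr10:117282273-117282522 for Lyz2, both on the minus strand. Capitals mark bases that differ from the neighbour, or have no partner in it, in a global alignment.
Lyz1: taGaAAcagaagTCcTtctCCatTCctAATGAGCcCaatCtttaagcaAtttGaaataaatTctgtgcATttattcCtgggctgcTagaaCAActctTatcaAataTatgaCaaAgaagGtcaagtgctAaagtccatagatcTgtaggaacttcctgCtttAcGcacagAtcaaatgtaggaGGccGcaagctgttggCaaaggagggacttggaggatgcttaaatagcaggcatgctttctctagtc
Lyz2: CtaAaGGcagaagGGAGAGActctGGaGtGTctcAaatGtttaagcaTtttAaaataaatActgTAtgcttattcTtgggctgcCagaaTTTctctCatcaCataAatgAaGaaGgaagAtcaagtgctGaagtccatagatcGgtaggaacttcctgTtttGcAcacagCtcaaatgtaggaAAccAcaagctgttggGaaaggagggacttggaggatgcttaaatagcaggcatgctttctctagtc
The alignment had 78.8% identical columns, and the last 50 bases before the start were identical (100%).

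The mucosal pentraxin genes are shown because they had the largest differences among the 8 genes. Their windows are at chr1:174330268-174330517 on the plus strand for Mptx1 and chr1:173277757-173278006 on the minus strand for Mptx2. Capitals mark the hexamers CTTTGA and CTTTGT, the core letters of the motif that TCF and LEF factors bind, searched on both strands.
Mptx1: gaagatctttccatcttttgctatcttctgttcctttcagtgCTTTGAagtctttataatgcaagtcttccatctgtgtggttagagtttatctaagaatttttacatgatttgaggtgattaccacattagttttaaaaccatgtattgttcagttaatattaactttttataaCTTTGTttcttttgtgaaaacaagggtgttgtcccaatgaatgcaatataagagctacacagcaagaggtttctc
Mptx2: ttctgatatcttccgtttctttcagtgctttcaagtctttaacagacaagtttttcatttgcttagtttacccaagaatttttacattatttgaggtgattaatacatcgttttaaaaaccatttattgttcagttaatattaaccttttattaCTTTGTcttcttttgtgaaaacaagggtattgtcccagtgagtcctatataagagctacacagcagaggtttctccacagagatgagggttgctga
These windows had 74.0% identical columns, with 2 hexamer matches in Mptx1 and 1 in Mptx2. RefSeq promoters of 7 of the 8 genes were at hand, each covering 250 bases before to 50 bases after the start. CTTTGA or CTTTGT was found in 4 of them (Lyz1, Ang4, Mptx1 and Mptx2) and in 31.2% of all 32851 promoters. The match in Lyz1 began 140 bases before the start and that in Ang4 113 bases before it. No match of TATAAA was found in Lyz1, Lyz2, Ang, Ang4, Mptx2 or Itln1. The hexamer CAGCTG was found in Lyz1 and Lyz2 and in 16.3% of all promoters, and TATAAA in Mptx1 and in 13.6% of all. These matches describe letters in a window and are not evidence of binding.

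Of the 8 antimicrobial genes, 4 fell and 0 rose in APC-KI tumours. Ang4, Lyz1, Pla2g2a and Mptx1 were lower, Mptx2 had a large difference that did not pass the test, and Lyz2, Ang and Itln1 had small differences that did not pass. Over all 19127 genes tested with edgeR's quasi-likelihood test, 7.63% were lower and 12.5% higher at an adjusted p under 0.05. The median log2 change was −2.17 over the 8 genes and −0.02 over all genes tested. Since the 8 genes were chosen with earlier results known, setting them beside all genes is description and not an independent test. At that threshold 20.1% of all genes passed in either direction. With library totals alone as the scaling, 2844 genes were lower and 1978 higher, against 1459 and 2388 with TMM factors, and the same 4 of the 8 genes were lower. Under that scaling the median over all genes shifted by −0.12 (log2). APC-KI values lay wholly below APC-WT values for the 4 genes that fell, as they did for 21.5% of all genes tested, wholly above for 0 of the 8 genes against 23% of all, and apart in either direction for 4 of 8 against 44.5%. In bulk tumours, fewer cells of a type and less RNA per cell cannot be told apart. Ang4 and Pla2g2a were the 2 genes lower among Y-negative libraries, and also the 2 lower without APC-KI replicate 1.

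**Figure D1:**
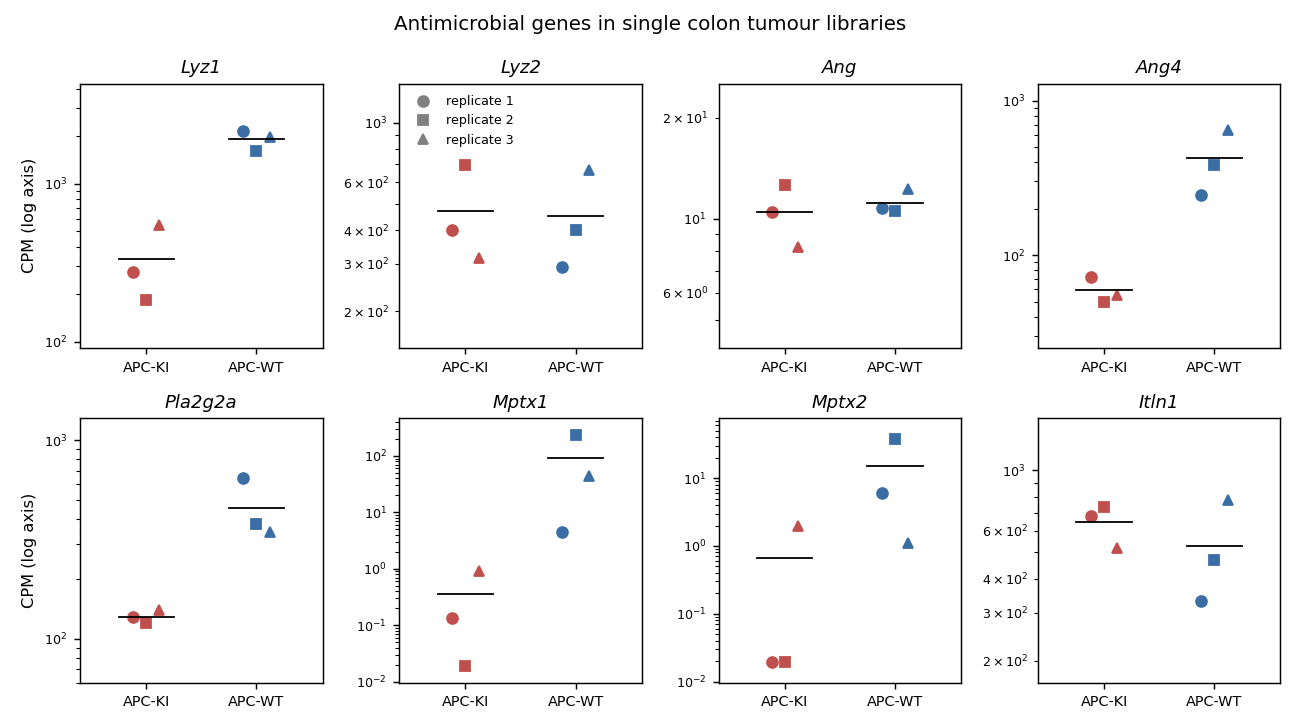
Expression of the 8 antimicrobial genes in CPM (log axis, each panel with its own range) in APC-KI and APC-WT colon tumours. Each symbol is 1 library, marked by replicate number, and the line is the group mean of 3. Lyz1, Ang4, Pla2g2a and Mptx1 have no APC-KI library above an APC-WT library, and the groups overlap for the other 4 genes.

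Lyz1, the lysozyme of Paneth cells, which cleaves bacterial cell walls, was the most abundant of these genes in APC-WT tumours. It stood at 276, 183 and 545 CPM in APC-KI tumours, against 2148, 1612 and 1979 CPM in APC-WT tumours. The highest APC-KI library, replicate 3, was still below every APC-WT library. The mean was 335 ± 188 CPM in APC-KI and 1913 ± 274 CPM in APC-WT tumours (SD, n = 3 each), and Lyz1 fell by 2.51 on the log2 scale (SE 0.40, edgeR adjusted p = 0.0117). It did not pass without APC-KI replicate 1 (log2 change −2.39, adjusted p = 0.0512) or among Y-negative libraries (−2.57, adjusted p = 0.16).

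Lyz2, the lysozyme of macrophages and neutrophils, which some epithelial cells also make, overlapped between the groups. It stood at 399, 697 and 316 CPM in APC-KI tumours, against 293, 400 and 665 CPM in APC-WT tumours. The highest libraries were APC-KI replicate 2 and APC-WT replicate 3, and the spread within each group was about as wide as the whole range. The log2 change was 0.06 ± 0.39 (SE, adjusted p = 0.928), and its sign turned with library totals only (−0.06) and among Y-negative libraries (−0.50), as well as without APC-KI replicate 2 (−0.34), APC-WT replicate 1 (−0.18) or APC-WT replicate 2 (−0.03). Of the markers of these cells, 3 of 16 for macrophages and 5 of 11 for neutrophils were higher in APC-KI tumours, and 1 and 2 among Y-negative libraries. Over all genes tested 12.5% were higher. The part of macrophages and neutrophils in the Lyz2 level was not tested.

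The ratio of Lyz1 to Lyz2 within a library needs no scaling between libraries. Lyz1 had 0.693, 0.262 and 1.72 times the counts of Lyz2 in APC-KI tumours, and 7.34, 4.03 and 2.98 times in APC-WT tumours. All APC-KI ratios were below all APC-WT ratios, by 6.55-fold on average (exact two-sided permutation test p = 0.1, the smallest that 3 against 3 allows, and 0.15 adjusted over 3 pairs). Of all 50-base windows of the Lyz1 transcripts 16.1% also occurred in Lyz2, and of all 100-base windows 2.06%, so a small part of the reads could be split between them. With the counts of the pair summed before the fit, the sum fell by 1.55 on the log2 scale (adjusted p = 0.00388).

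Ang4, a ribonuclease of mouse Paneth and goblet cells that kills bacteria, was low in every APC-KI library. It stood at 71.8, 50.1 and 55.7 CPM in APC-KI tumours, against 245, 382 and 644 CPM in APC-WT tumours. APC-KI values lay close together, and the APC-WT values spread from the lowest in replicate 1 to the highest in replicate 3. The log2 change of Ang4 was −2.84 ± 0.37 (SE, edgeR adjusted p = 0.00732), a level 7.15-fold lower. It passed in all 17 alternative analyses, with adjusted p of up to 0.032. Among these, 1 summed Ang with Ang4 and was led by Ang4 by construction. Another, among Y-negative libraries (log2 change −3.45), kept only the APC-WT library with the highest Ang4 level.

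Ang encodes angiogenin, a secreted ribonuclease of many tissues and the founding relative of Ang4. It was rare, at 10.4, 12.6 and 8.22 CPM in APC-KI tumours and 10.7, 10.5 and 12.2 CPM in APC-WT tumours. The groups overlapped, with the highest and the lowest of the 6 values both in APC-KI tumours, and the log2 change was −0.10 ± 0.18 (SE, adjusted p = 0.727). Ang4 had 6.87, 3.97 and 6.76 times the counts of Ang in APC-KI tumours, and 22.8, 36.3 and 52.5 times in APC-WT tumours. These ratios did not overlap between the groups either (exact two-sided permutation test p = 0.1, 0.15 adjusted over 3 pairs). Ang shares a first exon with Rnase4, and 14.5% of its 50-base windows occurred in Rnase4 or Ang2. Summed with Rnase4, the change stayed small (log2 change −0.03, adjusted p = 0.896).

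Pla2g2a encodes a secreted phospholipase that breaks down bacterial membranes, and it is known as Mom1, a locus that modifies the number of intestinal tumours in Apc mutant mice. Its level was 129, 120 and 139 CPM in APC-KI tumours, against 643, 378 and 347 CPM in APC-WT tumours. APC-WT replicate 1 was the highest library and the 3 APC-KI values were the most even among the genes that fell. The log2 change of Pla2g2a was −1.82 ± 0.24 (SE, edgeR adjusted p = 0.00773), and −1.43 among Y-negative libraries (adjusted p = 0.0197). With the presence of Y-linked counts as a covariate it did not pass (log2 change −1.43, adjusted p = 0.0583). GENCODE M21 calls the gene a polymorphic pseudogene and RefSeq a transcribed pseudogene, because the C57BL/6 reference strain carries a mutation that disrupts the protein. Transcript counts do not tell which allele these tumours carried.

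Mptx1 and Mptx2 encode mucosal pentraxins, secreted proteins of the family of C-reactive protein, and Mptx2 is a marker of small intestinal Paneth cells in mice. Mptx1 stood at 0.134, 0.0191 and 0.907 CPM in APC-KI tumours, which was 7, 1 and 51 counts, against 4.5, 231.5 and 43.6 CPM in APC-WT tumours. Every APC-KI library was below every APC-WT library, but the APC-WT libraries themselves spanned a wide range with replicate 2 far above the others. The log2 change of Mptx1 was −8.0 ± 1.79 (SE, edgeR adjusted p = 0.0282). It did not pass with 1 library left out in 5 of 6 cases, the exception being APC-WT replicate 1, with adjusted p between 0.0503 and 0.101 and log2 changes between −10.21 and −6.06, the last without APC-WT replicate 2. Nor did it pass among Y-negative libraries (−6.91, adjusted p = 0.135).

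Mptx2 was less abundant, at 0.0192, 0.0191 and 1.96 CPM in APC-KI tumours and 5.97, 38.0 and 1.12 CPM in APC-WT tumours. In counts this was 1, 1 and 110 in APC-KI tumours and 398, 2160 and 60 in APC-WT tumours. APC-KI replicate 3 was above APC-WT replicate 3, so the groups overlapped, and the log2 change of −4.48 ± 1.82 (SE) did not pass (adjusted p = 0.126). Without APC-KI replicate 3 the log2 change was −9.47 (adjusted p = 0.0397), and without APC-WT replicate 2 it was −2.41 (adjusted p = 0.379). Among Y-negative libraries it was −0.74 (adjusted p = 0.884). The pair did not keep a fixed ratio: Mptx1 had 5.0, 1.0 and 0.466 times the counts of Mptx2 in APC-KI tumours, and 0.754, 6.10 and 38.5 times in APC-WT tumours, after adding 0.5 to each count (exact two-sided permutation test p = 0.4). The difference in the log2 ratio was −2.08, between −3.53 and −0.69 with 1 library left out, and −4.86 among Y-negative libraries. Of the 50-base windows of Mptx1, 17.9% also occurred in Mptx2. The summed pair fell by 6.70 on the log2 scale (adjusted p = 0.0403).

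Itln1 encodes intelectin, a lectin of goblet and Paneth cells that binds sugars found on microbes. It stood at 683, 731 and 517 CPM in APC-KI tumours and at 331, 468 and 777 CPM in APC-WT tumours. The APC-KI values lay inside the range of the APC-WT values, whose lowest was replicate 1 and highest replicate 3. The log2 change was 0.29 ± 0.31 (SE, adjusted p = 0.523). Its sign turned among Y-negative libraries (−0.27, adjusted p = 0.491), where the only APC-WT library left is the one with the highest level. The next genes to Itln1 in its family, Itln2 and Itlnb, were not analysed here.

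**Figure D2:**
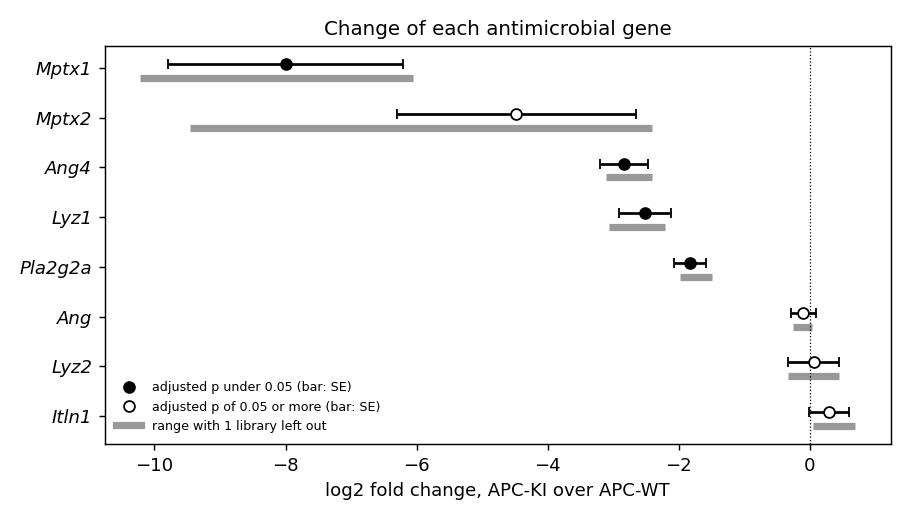
Log2 fold change of each antimicrobial gene, APC-KI over APC-WT, from edgeR's fit over all genes (point, bar of 1 SE), with the range of the same value when each of the 6 libraries is left out in turn (grey). Filled points passed at an adjusted p under 0.05. Ang4, Lyz1 and Pla2g2a have narrow ranges below 0, the ranges of Mptx1 and Mptx2 span several log2 units, and Ang and Lyz2 lie on both sides of 0.

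**Figure D3:**
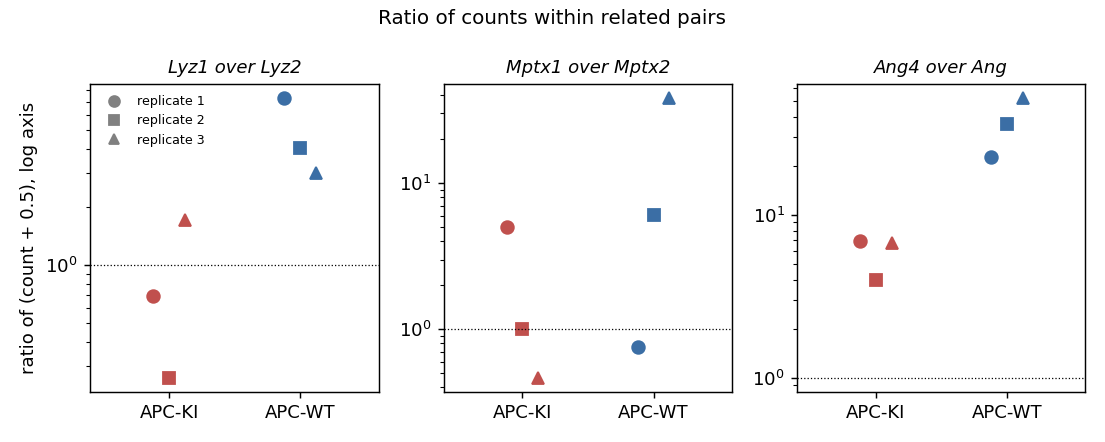
Ratio of counts, each plus 0.5, between related genes within each library, for Lyz1 over Lyz2, Mptx1 over Mptx2 and Ang4 over Ang (log axis, symbols mark replicates, dotted line at equal counts). The APC-KI and APC-WT ratios do not overlap for Lyz1 over Lyz2 and for Ang4 over Ang, and they overlap for Mptx1 over Mptx2.

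Together the 8 genes held 0.147%, 0.171% and 0.157% of all counts in APC-KI tumours, and 0.384%, 0.368% and 0.461% in APC-WT tumours (Wilson 95% intervals within 0.0018 percentage points of each share, for counting error alone, since reads are not independent molecules). The make-up of that share differed too. Lyz1 gave 17.6%, 10.2% and 34.4% of it in APC-KI tumours, and 58.3%, 45.8% and 44.3% in APC-WT tumours. Itln1 gave 43.5%, 40.8% and 32.7% in APC-KI tumours and 9.0%, 13.3% and 17.4% in APC-WT tumours. Shares of the same total are tied to each other, so a larger share need not mean a higher level. The level of Itln1 itself had a log2 change of 0.29 (edgeR adjusted p = 0.523).

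Levels of different genes were set against each other per kilobase of exon in the M21 annotation. In APC-KI tumours Itln1 led at 564 ± 98.3 CPM per kilobase, before Lyz2 (357.5 ± 152), Lyz1 (265 ± 149), Pla2g2a (139 ± 10.2), Ang4 (83.5 ± 15.9), Ang (8.68 ± 1.83), Mptx2 (0.838 ± 1.41) and Mptx1 (0.443 ± 0.605; SD, n = 3). In APC-WT tumours Lyz1 led at 1515 ± 217 CPM per kilobase, before Ang4 (597 ± 286), Pla2g2a (491.5 ± 176), Itln1 (460 ± 200), Lyz2 (344 ± 145.5), Mptx1 (117 ± 152), Mptx2 (18.9 ± 25.2) and Ang (9.28 ± 0.793; SD, n = 3). Neighbours whose libraries did not overlap in APC-KI tumours were Pla2g2a and Ang4, Ang4 and Ang, and Ang and Mptx2. In APC-WT tumours the sole such neighbours were Lyz1 and Ang4.

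The defining granule products of Paneth cells are the alpha-defensins, small peptides that pierce bacterial membranes. The levels of these genes are singled out here after their values were seen. Summed over 10 of them, which are near-identical copies whose reads cannot be assigned with certainty, they reached 9.45, 9.68 and 101 CPM in APC-KI tumours, against 843, 862 and 300.2 CPM in APC-WT tumours. APC-KI replicate 3 was the highest of its group and APC-WT replicate 3 the lowest of its group, as for Mptx2. Of 9 tested, 3 fell (Defa17, Defa24 and Defa26) and 0 rose, while 6 did not pass, and the log2 changes of all 9 lay between −4.81 and −3.63. Without APC-KI replicate 3 all 9 were lower, without APC-WT replicate 3 there were 2, and among Y-negative libraries 0. Lyz1 differed from the defensins within APC-WT tumours, since its level in replicate 3 (1979 CPM) lay between those of replicates 1 and 2.

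**Figure D4:**
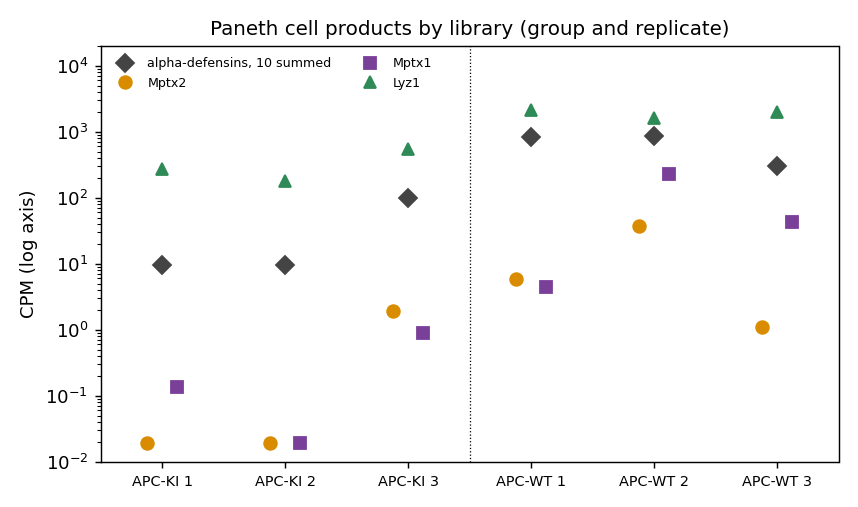
Levels of Lyz1, Mptx1, Mptx2 and the sum of 10 alpha-defensins in CPM (log axis) in each library, APC-KI replicates left of the dotted line and APC-WT replicates right of it. APC-KI replicate 3 is the highest APC-KI library for all 4 series. APC-WT replicate 3 is the lowest APC-WT library for Mptx2 and the defensins but not for Lyz1 or Mptx1.

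Beyond the 8 genes, 8 of 25 tested Paneth and deep crypt secretory markers fell and 3 rose, with a median log2 change of −0.77. These 25 include the 9 alpha-defensins tested and the 3 of them that fell. Of the other 16 markers, 5 fell and 3 rose, with a median of −0.27. Over all genes tested 7.63% were lower and 12.5% higher. Mmp7, the protease that activates alpha-defensins in mice, stood at 338, 382.5 and 428 CPM in APC-KI tumours, against 981, 758 and 844 CPM in APC-WT tumours (log2 change −1.17, adjusted p = 0.00532). Sox9, a transcription factor needed for Paneth cells to form, fell by 0.69 on the log2 scale (adjusted p = 0.00817). Kit, a marker of deep crypt secretory cells as well as mast cells, Habp2 and the ligand gene Wnt3 fell as well. The 3 that rose were Xbp1, a factor of secretory cells (log2 change 0.83), the Wnt receptor gene Fzd5 (1.29) and the bacterial sensor gene Nod2 (0.89). Among Y-negative libraries 1 of these 3 passed, Fzd5 (log2 change 1.12, adjusted p = 0.0349), while Xbp1 (0.92, adjusted p = 0.0937) and Nod2 (0.97, adjusted p = 0.0741) did not. None (0 of 3) passed in the fit that took Y-linked counts as covariate. Reg4, a marker of deep crypt secretory cells, had a log2 change of −0.03 and Atoh1, the master factor of secretory cells, of −0.17, and neither passed. Over all genes tested, lower calls went from 1459 to 300, 393 and 1595 without APC-KI replicates 1, 2 and 3. They went to 891, 371 and 1288 without APC-WT replicates 1, 2 and 3. The number of lower markers was 2, 3 and 14 without APC-KI replicates 1, 2 and 3, and 5, 3 and 5 without APC-WT replicates 1, 2 and 3, and 2 among Y-negative libraries, Mmp7 (−1.14, adjusted p = 0.0377) and Wnt3 (−2.86, adjusted p = 0.0197). Sox9 did not pass there (−0.60, adjusted p = 0.111).

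Goblet cells, which share Ang4 and Itln1 with Paneth cells, had 5 of 16 markers higher and 0 lower, with a median log2 change of 0.70. Shares over all genes tested were 12.5% higher and 7.63% lower. The summed level of the 16 markers was 4713 to 7121 CPM in APC-KI tumours and 2552 to 3670 CPM in APC-WT tumours, and no marker was at 0. The mucin gene Muc2 rose by 1.08, the trefoil peptide gene Tff3 by 1.54, Creb3l1 by 0.86 and Sytl2 by 0.49 on the log2 scale (adjusted p between 0.0049 and 0.0393). The number higher was 2 without APC-KI replicate 1, APC-KI replicate 2 or APC-WT replicate 2, 3 without APC-WT replicate 1, and 2 among Y-negative libraries. Over all genes tested, higher calls fell too, from 2388 to 973 and 985 without APC-KI replicates 1 and 2. They fell to 1567 and 788 without APC-WT replicates 1 and 2. The part of goblet cells in the levels of Itln1 and Ang4 was not tested.

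Macrophage and monocyte markers, which belong to cells that make Lyz2, had 3 of 16 higher and 0 lower, with a median log2 change of 0.56. They summed to between 749 and 1056 CPM in APC-KI tumours and between 548.5 and 693 CPM in APC-WT tumours. Cd14, Itgam and Fcgr1 rose by 0.91, 1.20 and 1.12 on the log2 scale, and Mertk did not pass at 0.70. Neutrophil markers had 5 of 11 higher and 0 lower, with a median of 0.80, and summed to between 597 and 760 CPM in APC-KI tumours and between 362 and 435 CPM in APC-WT tumours. Ly6g rose by 1.67, Cxcr2 by 1.01 and Stfa2l1 by 1.24 on the log2 scale. Camp rose by 2.08 but was rare, with 25, 28 and 37 counts in APC-KI tumours and 8, 5 and 10 in APC-WT tumours. No marker of either list was at 0 in all libraries. Over all genes tested 12.5% were higher and 7.63% lower. Of the neutrophil granule genes, Elane had 1, 4 and 0 counts in APC-KI tumours and 0 in every APC-WT tumour. Macrophage markers higher numbered 1 without APC-KI replicate 1, 1 without APC-WT replicate 2 and 1 among Y-negative libraries. Neutrophil markers higher numbered 2, 1 and 2 in the same analyses and 3 without APC-KI replicate 2. Higher calls over all genes tested also fell, from 2388 to 973 and 985 without APC-KI replicates 1 and 2. They fell to 1567 and 788 without APC-WT replicates 1 and 2. Of 12 pan-epithelial markers, 6 rose and 1 fell, with a median of 0.35. Krt20, a keratin of mature surface cells, and Krt19 and Cldn7 rose by 2.44, 0.38 and 0.46 on the log2 scale, and Cldn4 fell by 0.64. The number of higher epithelial markers was 0 without APC-KI replicate 1, APC-KI replicate 2 or APC-WT replicate 2, 1 without APC-WT replicate 1, and 0 among Y-negative libraries.

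Of 45 genes listed for the wider families of ribonucleases, lysozymes, secreted phospholipases and pentraxins, 12 had no count in any library. The inhibitor gene Rnh1, the receptor gene Pla2r1 and Spaca6 are listed with them but belong to none of these families. Among the 22 tested, 2 fell and 3 rose, near the shares of 7.63% lower and 12.5% higher over all genes tested. Of 18 genes listed for the RNase A family, Rnh1 included, 7 had no count in any library and 6 were tested. Rnase6, a ribonuclease of macrophages, rose (log2 change 1.43, adjusted p = 0.0395) and 0 fell. Rnase6 did not pass without any 1 of the APC-KI replicates, without APC-WT replicate 2 or among Y-negative libraries (log2 change 1.08, adjusted p = 0.192). Rnase2b (−1.15), Ear2 (0.72) and the inhibitor gene Rnh1 (−0.15) did not pass. Of 9 genes listed beside the lysozymes 4 had no count, and neither of the 2 tested, Lyzl4 (−0.08) and Spaca6 (−0.44), passed. Spaca6 is named like lysozyme-like genes of the list but does not encode a lysozyme. Among 10 tested genes of secreted phospholipases and their receptor, Pla2g2f fell (log2 change −0.88, adjusted p = 0.0267) while Pla2g5 (1.31) and the receptor gene Pla2r1 (0.81) rose, and Pla2g12a did not pass (−0.63). Pla2g2f stood at 40.4, 36.5 and 34.1 CPM in APC-KI tumours, against 89.0, 52.5 and 62.1 CPM in APC-WT tumours, and did not pass without APC-KI replicate 1 or 2. Neither Pla2g5 nor Pla2r1 passed without APC-KI replicate 1, APC-KI replicate 2 or APC-WT replicate 2, and none of the 3 passed among Y-negative libraries. There the log2 changes were −0.75 for Pla2g2f, 1.25 for Pla2g5 and 0.65 for Pla2r1 (adjusted p = 0.0665, 0.321 and 0.108). Of 4 pentraxin relatives tested, Nptx1, the neuronal pentraxin, fell by 3.17 on the log2 scale (adjusted p = 0.00124). Its level was 3.44, 4.74 and 3.56 CPM in APC-KI tumours, against 31.9, 30.0 and 43.5 CPM in APC-WT tumours. Ptx3 (1.95), Nptx2 (0.23) and Nptxr (−0.62) did not pass. In this family 1 gene was lower in each of the analyses with a library left out.

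Interleukins of type 2 immunity raise Ang4 and Itln1 in mouse intestine. Of 10 genes for such signals and their receptors, 5 were tested, and the receptor chain gene Il13ra1 rose (log2 change 0.93, adjusted p = 0.012) while 0 fell. Shares over all genes tested were 12.5% higher and 7.63% lower. Il13ra1 did not pass among Y-negative libraries (log2 change 0.74, adjusted p = 0.102). Il33 (0.73), Il4ra (0.59) and Stat6 (0.01) did not pass. Il13 had 2, 0 and 0 counts in APC-KI tumours and 2, 14 and 17 counts in APC-WT tumours, Il9 had 0 in every APC-KI tumour and 5, 11 and 39 in APC-WT tumours, Il4 had at most 5 counts in any library, and Il25 had 0 in all. The part of these type 2 signals in the levels of Ang4 and Itln1 was not tested. Of Tcf7l2 and its 3 relatives, Tcf7l2 and Tcf7 fell, Tcf7l1 rose and Lef1 did not pass (log2 changes −2.89, −1.17, 1.10 and −0.78). Tcf7l1 did not pass without APC-KI replicate 1, without APC-WT replicate 2 or among Y-negative libraries (log2 change 1.06, adjusted p = 0.197).

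**Figure D5:**
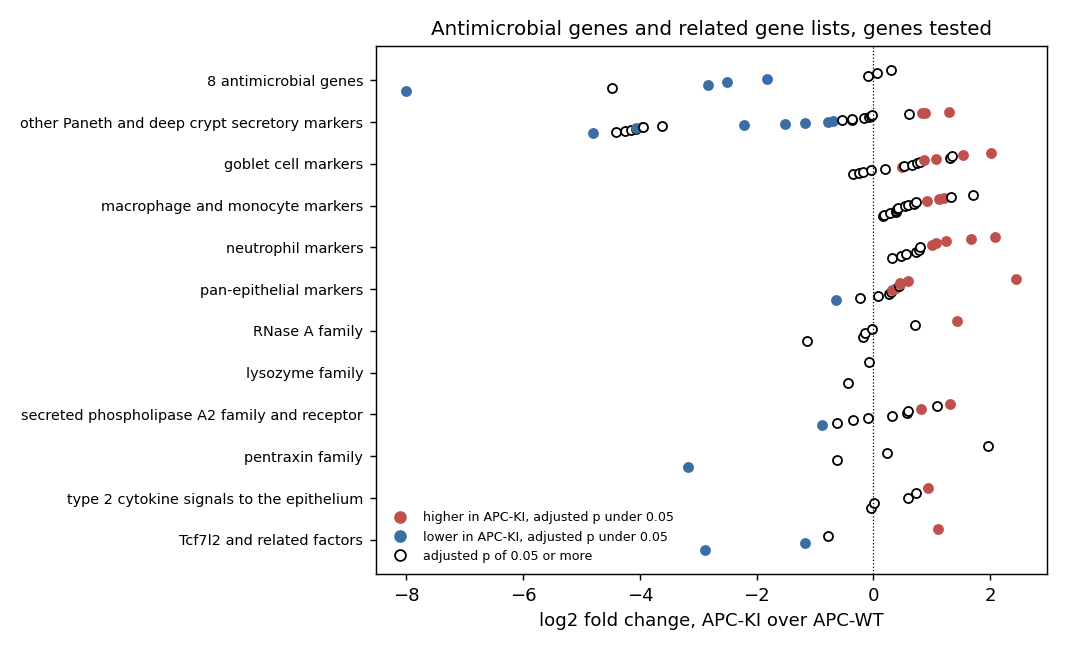
Log2 fold changes, APC-KI over APC-WT, of the 8 antimicrobial genes and of the tested genes of each related list (1 point a gene, height within a row spreads the points). Filled points passed at an adjusted p under 0.05. The alpha-defensins and Mptx2 form the group between −5 and −3 in the upper rows, and the myeloid lists lie to the right of 0.

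The protein-coding genes most like each antimicrobial gene were sought among 12988 genes by Pearson's r of log2 CPM over the 6 libraries, which share scaling and the difference between groups. They were Ktn1 and Hid1 for Lyz1 (r = 0.999 each), Cyb5r1 and Pdlim2 for Lyz2 (0.985 each), Utp14a and Prmt5 for Ang4 (0.998 and 0.997) and Elmo1 and Lrrc47 for Ang (0.979 and 0.974). For Pla2g2a they were Nit2 and Guk1 (0.997 and 0.996), for Mptx1 Pot1a and Prep (0.997 and 0.995), for Mptx2 Bcl2 and Lin9 (0.996 and 0.987) and for Itln1 Sox7 and Txndc5 (0.994 and 0.992). Over the deviations from the group means the closest genes were others in every case but Bcl2 for Mptx2 (r = 0.991). With 6 libraries and so many genes searched, these values describe likeness of pattern alone.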

How the data were processed

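Per the labels' protocols, colon tumours were pinched from the muscle beneath, and libraries were made from total RNA with a stranded mRNA kit. The tools named, per the submitters' processing notes, are STAR, DESeq2 1.37.6, cutadapt 2.5 and Trim Galore 0.6.4, with builds GRCm38 and mm10. Which program counted, on which strand and with which annotation is not given in the sources used here. Raw counts per Ensembl gene were deposited by the authors, 1 column per library, per the file headers. Symbols, gene types and exon lengths came from GENCODE M21, which named 52093 of 53700 identifiers (35 with the same version), and promoters from RefSeq.

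After filterByExpr and TMM scaling, genes were tested with edgeR 4.0.16 in R 4.3.3 (robust quasi-likelihood, group alone, Benjamini-Hochberg over 19127 genes, threshold 0.05). The steps were tested on simulated data. CPM use the TMM factors. Each SE of a log2 change was derived as its absolute size divided by the square root of the test's F value. Count ratios within pairs (0.5 added to each count) had exact permutation tests. DESeq2 1.42.0, limma 3.58.1 and further alternatives appear in the closing section. The 8 genes and 12 lists of related genes were chosen with earlier results of these data known. From each list up to 4 tested genes with the smallest p were named. Alpha-defensins, other markers beyond that number and interleukins were named after their values were seen. The intelectin list (Itln2, Itlnb) was not analysed here. The planned protein identity was not computed. No 2 replicates of a group were alike within counting noise (chi-square of at least 36.4 per gene).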

Additional observations from a re-analysis of the deposited data

How the results depend on the processing

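Of 135 alternative values for the 8 genes, 108 kept their direction and their side of the threshold. The number of lower genes was 4, between 2 and 4 with 1 library left out, 2 among Y-negative libraries and 1 with those counts as a covariate. With 1 library left out the log2 changes lay between −3.07 and −2.22 for Lyz1, −0.34 and 0.44 for Lyz2, −0.25 and 0.04 for Ang, −3.12 and −2.41 for Ang4, −1.99 and −1.49 for Pla2g2a, −10.21 and −6.06 for Mptx1, −9.47 and −2.41 for Mptx2, and 0.05 and 0.69 for Itln1. Among Y-negative libraries Lyz1 (−2.57) and Mptx1 (−6.91) did not pass, and Lyz2 (−0.50) and Itln1 (−0.27) turned in sign. With Y-linked counts as a covariate Lyz1 (−2.56), Pla2g2a (−1.43) and Mptx1 (−6.90) did not pass, and Lyz2 (−0.50) and Itln1 (−0.27) turned. The cause was not tested. Mptx1 also did not pass with no filter (−8.0), with limma-voom (−7.73) or with the replicate number as a block (−7.34, adjusted p = 0.052), and it passed with DESeq2. Lyz2 was −0.0617 with library totals only, and Ang 0.0398 without APC-KI replicate 3. Summing related pairs gave −1.55 in place of Lyz2, −2.64 in place of Ang and −6.70 in place of Mptx2, by construction led by the more abundant copy.

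Over all genes, 1459 were lower and 2388 higher. The counts were 465 and 1195 with the replicate block, 152 and 178 among Y-negative libraries, and 195 and 220 with the covariate. Lower calls were 2388 with DESeq2 and 2844 with library totals only, and with 1 library left out calls fell to as few as 300 lower and 788 higher. The block changed no other call among the 8 genes. Same-numbered replicates did not deviate together (correlations 0.035, −0.068 and −0.182), which gave no sign that the numbers pair the samples. With 3 libraries a group a weak shared effect might not show. Of 352 alternative counts for the 11 related lists with genes tested, 272 stayed within 1.5 times. Many of these were 0 in both the main fit and the alternative, so the number says little about lists with calls. With 1 to 51 counts in APC-KI tumours, the fold of Mptx1 rests on few counts.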
